A study of Mus musculus with 3 samples.

Results

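The growth factor gene Igf2, the probe sets next to it in the array's numbering and 9 further imprinted genes were followed in γδNKT thymocytes that differed in the transcription factor PLZF. An imprinted gene is transcribed mainly from the chromosome copy of one parent. The members were 10 gene symbols, each taken from the probe set that lists that gene alone, plus 2 probe sets whose identifiers adjoin that of Igf2. One of these has no gene listed and is called the unannotated probe set, and the other is listed with Mir675 and Supt6 and is called the Mir675/Supt6 probe set. Of the 10 symbols 9 were measured in this way and 1, H19, was not, so 11 of the 24800 probe sets were described. The set was chosen by values of these same arrays, the intensities of Igf2 and the adjoining probe sets in the 3 genotypes, so the differences between genotypes are given as a description.

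The data were 3 Affymetrix arrays, 1 for each genotype, labelled PLZF +/+, PLZF +/lu and PLZF lu/lu. All 3 samples were γδNKT cells sorted from thymi of female C57Bl/6 mice aged 3 to 4 weeks. By the study's methods, all mice were also Rag1−/− and carried the Vγ1Vδ6.4 T cell receptor transgenes, and CD4+CD8− thymocytes were sorted. These transgenic cells stand in for the rare natural γδNKT cells, and lu (luxoid) stands for a point mutation in the gene of PLZF. The study treats PLZF lu/lu mice as deficient in PLZF. The sources used here give neither the number of mice behind each sample nor any pooling of them.

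With 1 array per genotype there was no spread between replicates, so no test was run and no difference has a replicate check. A fold above 2 was called, as a rule of size. Of all probe sets, 45.1% had the same value on all 3 arrays, for a reason that the sources used here do not give. The array medians lay between 159.7 and 161.8. Intensities are deposited on a linear scale, and 95% of the values of 1033 olfactory receptor probe sets, a family of the nose that serves here as background, lay below 108. Zbtb16, the gene that encodes PLZF, read 8796 with PLZF +/+, 6143 with PLZF +/lu and 2890 with PLZF lu/lu. These are RNA values and do not measure working PLZF protein. All 9 measured T cell markers of a list of 10, among them Cd3e, Cd3g and Cd4, lay above the olfactory receptor level on every array, and the brightest was Cd3g.

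Igf2 encodes insulin-like growth factor 2, a secreted hormone of fetal growth that is expressed from the paternal copy in most tissues. H19, its neighbour, gives a long non-coding RNA from the maternal copy and is the precursor of the microRNA miR-675. A shared differentially methylated region that binds the insulator protein CTCF keeps the pair on opposite parental copies, and both are largely shut down after birth. The arrays measured total RNA and did not separate the parental copies.

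The microRNA is shown first because its precursor, Mir675, is 1 of 2 genes listed for 1 of the adjoining probe sets. In the RefSeq order of genes, Mir675 follows H19 directly and both lie on the same side of Igf2. The mature arms are given from RefSeq (GRCm38.p6, minus strand), with the seed, bases 2 to 8, in capitals. The 2 arms have different seeds.
mmu-miR-675-5p (chr7:142577112-142577133): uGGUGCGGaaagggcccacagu
mmu-miR-675-3p (chr7:142577078-142577099): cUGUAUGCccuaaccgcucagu
The platform annotation does not give the probes' letters, so the stretch of RNA that the Mir675/Supt6 probe set detects is not known here. Its signal is not a measurement of either mature arm.

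The intensity of Igf2 was 1703 on the PLZF +/+ array, 870 on the PLZF +/lu array and 297 on the PLZF lu/lu array. The PLZF +/+ array was the brightest, the PLZF lu/lu array the dimmest, and all 3 lay above the olfactory receptor level. The log2 difference between PLZF +/+ and PLZF lu/lu was 2.52, and 5 of the 24800 probe sets had a higher one. PLZF +/+ was 1.96-fold above PLZF +/lu, just under the threshold, and PLZF +/lu was 2.93-fold above PLZF lu/lu.

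The unannotated probe set read 10461 on the PLZF +/+ array, 5421 on the PLZF +/lu array and 1183 on the PLZF lu/lu array. It was 8.84-fold higher in PLZF +/+ than in PLZF lu/lu, or 3.14 on the log2 scale, the second highest difference of all 24800 probe sets in that direction. PLZF +/lu lay between the other arrays, 1.93-fold below PLZF +/+ and 4.58-fold above PLZF lu/lu.

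The Mir675/Supt6 probe set read 6175 with PLZF +/+, 2133 with PLZF +/lu and 589 with PLZF lu/lu. Its fold of 10.5 between PLZF +/+ and PLZF lu/lu, 3.39 on the log2 scale, was the highest of all probe sets in that direction. PLZF +/+ was 2.9-fold above PLZF +/lu, which was 3.62-fold above PLZF lu/lu. Supt6, which encodes a histone chaperone of transcription elongation, also has a probe set of its own. That probe set was at 1756 on all 3 arrays.

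In the comparison of PLZF +/+ with PLZF lu/lu, these were the 3 of 11 member probe sets past 2-fold, all higher in PLZF +/+, a direction and size that 0.286% of all probe sets had. The choice of members used these values, and nothing is read from the count. Between PLZF +/lu and PLZF lu/lu the same 3 were past 2-fold, where 0.121% of all probe sets were more than 2-fold higher in PLZF +/lu. Between PLZF +/+ and PLZF +/lu it was 1 of 11, the Mir675/Supt6 probe set, beside 0.165% of all probe sets. The comparisons share arrays, and their values are therefore not separate support for each other. In these bulk samples, fewer cells with a transcript and less of it per cell cannot be told apart.

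**Figure D1:**
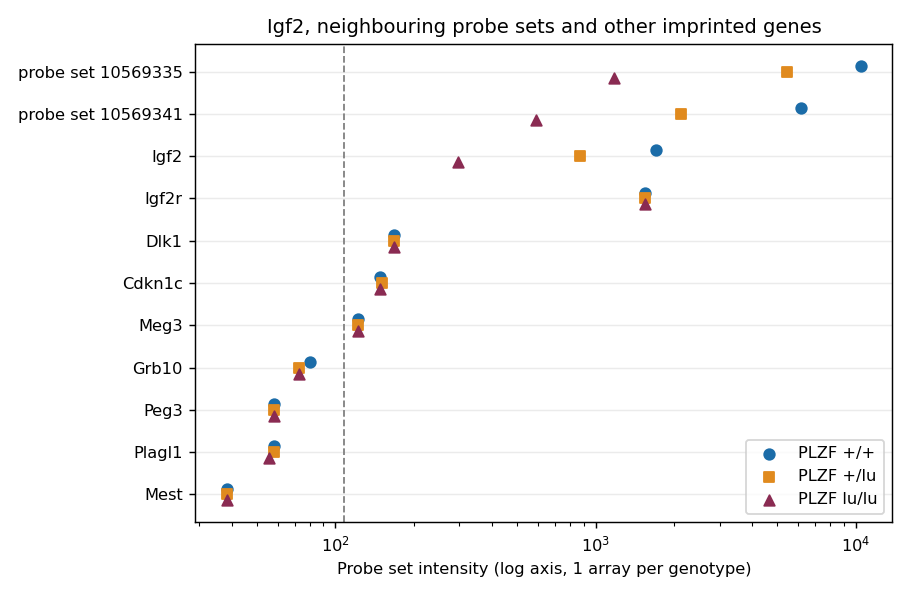
Intensity of the 11 member probe sets on a log axis, with circles for PLZF +/+, squares for PLZF +/lu and triangles for PLZF lu/lu, 1 array each and so no error bars. The dashed line is the olfactory receptor level of 108. Igf2 and the 2 probe sets given by number (the higher number is the Mir675/Supt6 probe set) spread out in the order of the genotypes, while the symbols of the 8 other members nearly coincide.

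Igf2r encodes the receptor that binds IGF2 and carries it to lysosomes for breakdown, and in mice it is expressed from the maternal copy. It read 1545 with PLZF +/+, 1545 with PLZF +/lu and 1551 with PLZF lu/lu, well above the olfactory receptor level and with a log2 difference of -0.01. Cdkn1c, which encodes the cell cycle inhibitor p57 and lies on the same chromosome as Igf2, read 148, 151 and 148 in that order of genotypes. The log2 difference between the outer genotypes was 0.00.

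Dlk1 and Meg3 are neighbours on chromosome 12, a Notch-family ligand gene of the paternal copy and a non-coding RNA of the maternal copy, in an arrangement like that of Igf2 and H19. Dlk1 was at 167 and Meg3 at 123 on every array. Both lay above the olfactory receptor level.

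The remaining 4 members, Peg3, Plagl1, Grb10 and Mest, lay below that level on all 3 arrays, with intensities from 38.4 to 79.8. Peg3 and Plagl1 encode zinc finger proteins, Grb10 an adaptor that restrains insulin and IGF receptor signalling, and Mest a protein of the hydrolase fold. No fold is given for them, since values in that range are not told from background. Peg3 and Mest were equal on all arrays. Among Igf2r, Cdkn1c, Dlk1 and Meg3, which lay above the level, the largest log2 difference in any comparison was 0.02, for Cdkn1c, with the PLZF +/lu array above the other arrays. Among the 11 probe sets 4 had equal values on all arrays. This was the case for 45.1% of all probe sets.

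PLZF +/lu took a similar but not identical place in the 3 probe sets past 2-fold. On the log2 scale, with PLZF lu/lu at 0 and PLZF +/+ at 1, it lay at 0.62 for Igf2, 0.70 for the unannotated probe set and 0.55 for the Mir675/Supt6 probe set. On the linear scale of intensity, these places were 0.41, 0.46 and 0.28. All 3 probe sets had the genotype order of Zbtb16. The log2 difference of Zbtb16 RNA between PLZF +/+ and PLZF lu/lu was smaller, at 1.61.

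The genes with the pattern most like that of Igf2 were found from the 3 log2 values of each gene, centred on their mean, by Euclidean distance. Among 11352 genes with a usual symbol above the olfactory receptor level the nearest was Rora, an orphan nuclear receptor gene of innate-like lymphocytes, at a distance of 0.21. It read 1498 with PLZF +/+, 672 with PLZF +/lu and 281 with PLZF lu/lu. Next were Ccr2, a receptor of chemokines made at inflamed sites (0.31), the guidance receptor gene Robo1 (0.39), the peptide transporter gene Slc15a2 (0.42) and Gsto1, a glutathione transferase gene (0.44). Tns4, of the tensins (0.46), Prelid2 (0.62) and Cacna1e, a calcium channel gene (0.63), completed the 8. The distance from Igf2 was 0.52 for the unannotated probe set and 0.62 for the Mir675/Supt6 probe set, and the median over all candidates was 1.80. That median is about the distance of a gene with equal values on all arrays, so it reflects the differences of Igf2 itself. The choice of members used these values, so nothing is read from the distances of the adjoining probe sets. With 3 arrays a like pattern says only that the values fell in the same order by similar steps.

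**Figure D2:**
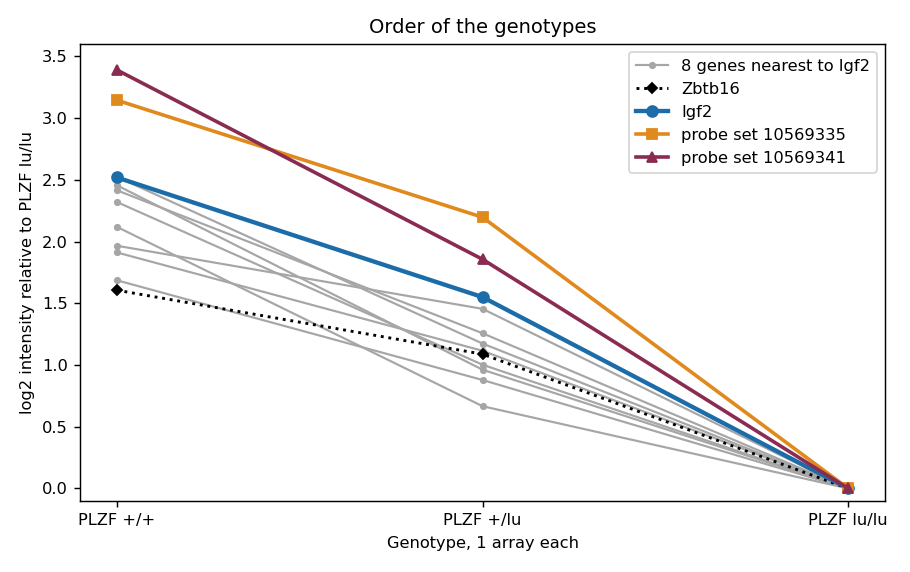
Log2 intensity relative to PLZF lu/lu for each genotype, 1 array each, for Igf2 (blue circles), the unannotated (orange squares) and Mir675/Supt6 (purple triangles) probe sets, Zbtb16 (dotted) and the 8 genes nearest to Igf2 in pattern (grey). These probe sets start at 3.14 and 3.39 and Igf2 at 2.52 in PLZF +/+, above Zbtb16 at 1.61.

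The genes around Igf2 were taken as the 15 measured genes on each side in the RefSeq order along the chromosome. None of the 30 differed by more than 2-fold in any of the 3 comparisons, where 0.430% of all 19518 measured genes did so between PLZF +/+ and PLZF lu/lu, 0.133% between PLZF +/+ and PLZF +/lu, and 0.123% between PLZF +/lu and PLZF lu/lu. Since these shares are small, nothing is read from the lack of a called gene. Genes nearer to Igf2 that no probe set lists alone, such as H19, Mir675 and Mir483, are not among the 30. Cdkn1c, a member, is 1 of the 30. On the PLZF +/+ array 5 were higher than on the PLZF lu/lu array, 10 lower and 15 equal. Of all genes 24.9% were higher, 16.9% lower and 58.1% equal. The log2 differences of the 30 ran from -0.29 to 0.51 with a median of 0.00, which was also the median of all genes. On the H19 side, the mitochondrial ribosomal protein gene Mrpl23 was the nearest measured gene, with 2770 on the PLZF +/+ array, 2362 on the PLZF +/lu array and 2203 on the PLZF lu/lu array. A dimmer probe set listed for Mrpl23 was at 1700, 1358 and 1602 in that order. Further out lay the muscle troponin gene Tnnt3, with 252, 319 and 264, Prr33, below the olfactory receptor level, and Lsp1, a leukocyte actin-binding protein gene, with 8811, 8468 and 7267. On the other side the insulin gene Ins2, next to Igf2, was at 107 on all arrays, just below that level. Th, which encodes the enzyme that starts catecholamine synthesis, was at 126, 133 and 126, and Ascl2, a transcription factor gene imprinted in placenta, lay below the level at 69.7 on every array. Tspan32, a tetraspanin gene of blood cells, was at 2270, 2270 and 2517. Next came Cd81, another tetraspanin gene, at 3693, 2873 and 2593, which had the highest log2 difference of the 30 (0.51). The keratin-associated protein genes among the 30 have near-identical copies, so their values are uncertain.

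Probe sets close by in the numbering were described without regard to gene names. Of 19 probe sets within 60 of the identifier of Igf2, the other 16 had log2 differences from -0.27 to 0.10 between PLZF +/+ and PLZF lu/lu, and 0 of the 16 were past 2-fold in any comparison. Over all probe sets these shares were 0.589% for PLZF +/+ against PLZF lu/lu, 0.234% for PLZF +/+ against PLZF +/lu and 0.319% for PLZF +/lu against PLZF lu/lu. Here too, nothing is read from the lack of a called probe set.

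**Figure D3:**
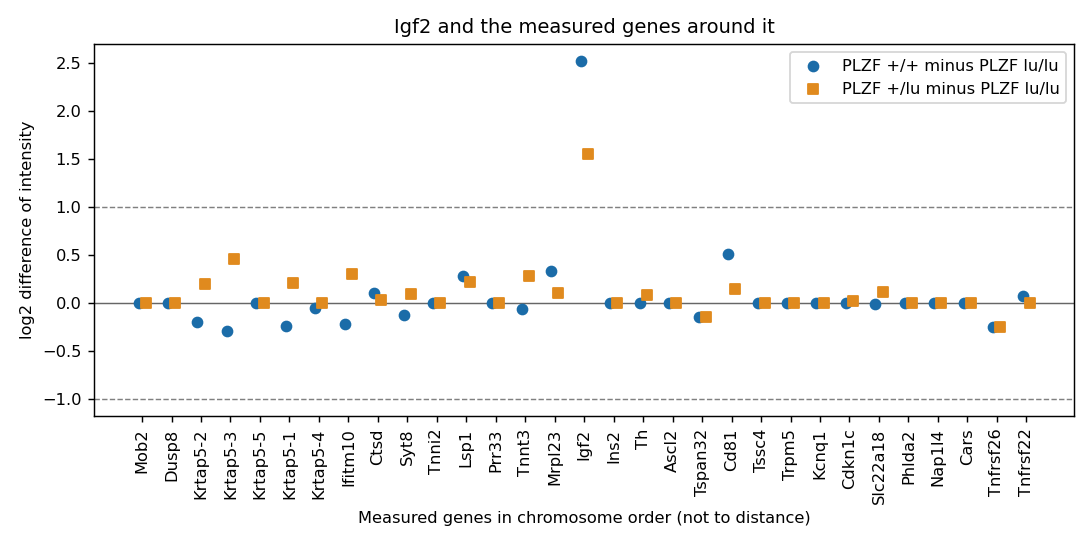
Log2 difference of intensity for Igf2 and the 15 measured genes on each side, in chromosome order and not to distance, with circles for PLZF +/+ minus PLZF lu/lu and squares for PLZF +/lu minus PLZF lu/lu. Dashed lines mark 2-fold. Igf2 stands at 2.52 and 1.55, and every other plotted gene lies between the dashed lines. The unannotated and Mir675/Supt6 probe sets, and genes that no probe set lists alone, such as H19, are not plotted.

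RefSeq gives 4 transcription starts for Igf2, and its single probe set on these arrays does not tell them apart. Their windows of 250 bases before and 50 bases after the start were searched on both strands for the GC box GGGCGG, the letters CCAAT, the letters TATAAA, and GGGGCCC, a run like those that proteins of the PLAG family are known to bind. The GC box was in 2 of the 4 windows, against 35.7% of 32851 windows of all genes, CCAAT was in 1 of the 4 (37.4% of all), and the other 2 motifs (13.6% for TATAAA and 6.66% for GGGGCCC) were in none. Only the start farthest downstream had more than 1 motif, and the 250 bases before it are printed for that reason, with GGGCGG and CCAAT on either strand in capitals (GRCm38.p6, minus strand).
Igf2, before the most downstream start (chr7:142657497-142657746): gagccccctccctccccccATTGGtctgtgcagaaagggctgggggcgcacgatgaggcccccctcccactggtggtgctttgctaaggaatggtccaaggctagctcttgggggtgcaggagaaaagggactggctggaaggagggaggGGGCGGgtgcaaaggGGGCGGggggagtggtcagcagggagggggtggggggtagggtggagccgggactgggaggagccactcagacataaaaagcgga
Windows were found for 8 of the 10 member symbols, without H19 and Cdkn1c, and in 12 of the 15 windows CG pairs exceeded the median of all windows, which was 7. They ranged from 1 in the second window of Meg3 to 45 in the first of Grb10, and the 4 of Igf2 held 2, 14, 24 and 7 in the order of transcription. These are letters in the reference and no measure of methylation or binding.

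A wider list held 58 imprinted genes, of which 47 were measured alone. Igf2 was the one past 2-fold when PLZF +/+ was set against PLZF lu/lu, or 2.13% of those measured, beside 0.430% of all genes, and nothing is read from this count either. With any size of difference counted, PLZF +/+ was the brighter for 9 of the 47 and the dimmer for 8, and 30 were equal. The median log2 difference was 0.00. The list classes 24 of the measured genes as paternally expressed, Igf2, Mcts2 and Airn among them, and 23 as maternally expressed, Cd81 among them. These classes hold for mouse genes in general and can be limited to some tissues. Whether a listed gene is imprinted in these thymocytes was not measured. In 23 of the 47 no array exceeded the olfactory receptor level. H19, Snrpn, Snurf, Zrsr1, Peg13, Kcnq1ot1, Rian, Mirg, Slc22a3, Gnas and Ube3a had no probe set of their own and are not reported.

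After Igf2, the largest difference among imprinted genes lay in Airn, the non-coding RNA that silences the paternal copy of Igf2r. It read 1775 with PLZF +/+, 2684 with PLZF +/lu and 2733 with PLZF lu/lu, a log2 difference of -0.62, so the 2 arrays with the lu allele were the brighter ones. Airn runs antisense through part of Igf2r, and the sources used here do not say whether its probes tell the strands apart. Mcts2, an intronless copy of the translation factor gene Mcts1, was at 805, 1011 and 1179, a log2 difference of -0.55. Mcts1 itself was at 327 on each array, and the similarity of the pair leaves the value of Mcts2 uncertain. Impact, a regulator of the amino acid stress response, was at 1131, 1026 and 855, which gave 0.40. H13, a signal peptide peptidase gene that holds Mcts2 in an intron and was among the 3 brightest with Cd81 and Airn, was at 3494, 3489 and 3494. None of these reached 2-fold.

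**Figure D4:**
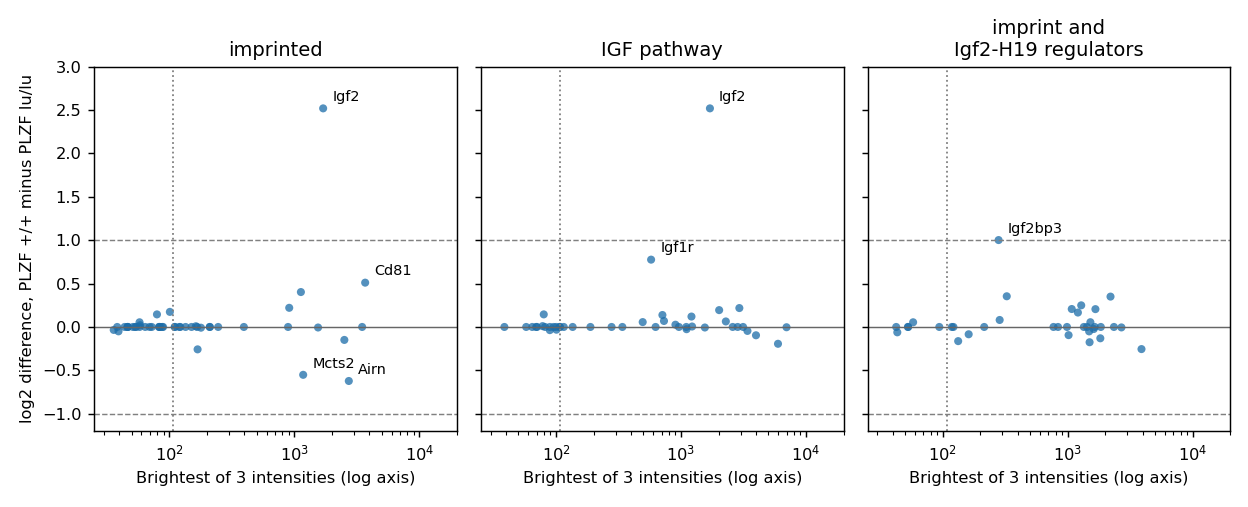
Log2 difference between PLZF +/+ and PLZF lu/lu against the brightest of the 3 intensities (log axis) for measured imprinted genes, genes of the IGF pathway and regulators of imprints and of Igf2 and H19. Dashed lines mark 2-fold and the dotted line the olfactory receptor level. Igf2 stands at 2.52 in both lists that hold it, Igf2bp3 lies on the 2-fold line, and all other genes lie inside it.

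IGF2 signals through the tyrosine kinases IGF1R and INSR, and its supply is set by IGF-binding proteins and by IGF2R. Of a list of 47 genes of this pathway 43 were measured, and Igf2 was the one past 2-fold between PLZF +/+ and PLZF lu/lu, 2.33% of those measured beside 0.430% of all genes. Since the values of Igf2 were used in choosing the members, nothing about the pathway is read from this count. PLZF +/+ was the brighter for 13, the dimmer for 8 and equal for 22, with a median log2 difference of 0.00. The shares over all genes were 24.9% brighter, 16.9% dimmer and 58.1% equal. Among the ligands, Igf1 was at 100.5 and Ins2 at 107 on every array, below the olfactory receptor level. Of the binding proteins, Igfbp4 was the brightest member of the whole list, with 6966, 6795 and 6982 in the order PLZF +/+, PLZF +/lu, PLZF lu/lu.

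Igf1r, the main signalling receptor of IGF1 and IGF2, read 576 with PLZF +/+, 432 with PLZF +/lu and 337 with PLZF lu/lu. The order was that of Igf2, and the fold between the outer genotypes was 1.71, below the threshold. Insr, the insulin receptor gene, was at 1102 on every array. Downstream, the kinase gene Akt2 was at 2928, 2720 and 2518, and Inpp5d, a lipid phosphatase gene that opposes PI3K, was at 2018, 1739 and 1764. Pik3r1, a regulatory subunit of PI3K, was at 3724, 3886 and 3979. Foxo1, a transcription factor that AKT keeps out of the nucleus, was at 5217, 5638 and 5967, with PLZF lu/lu the brightest. The log2 differences of these 4 genes lay between -0.19 and 0.22.

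The list of regulators of imprints and of Igf2 and H19 had 35 measured genes of 37. Igf2bp3, which encodes an RNA-binding protein of the fetal period that binds Igf2 mRNA, was the one past 2-fold, which made 2.86% of those measured, beside 0.430% of all genes between PLZF +/+ and PLZF lu/lu. It read 279 with PLZF +/+, 120 with PLZF +/lu and 140 with PLZF lu/lu. The fold of 2.0 between the outer genotypes lies at the threshold, and with 32 added to each intensity the log2 difference went from 1.0 to 0.86. PLZF +/lu was the dimmest array here, so the order was not that of Igf2, and PLZF +/+ was 2.33-fold above it, a contrast in which 0.133% of all genes were called. Both lower values lie close to the olfactory receptor level. Its relative Igf2bp1 was at 118 on all arrays, and the fetal RNA-binding protein gene Lin28b, at 43.3 or less, lay below that level.

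The remaining regulators differed by less. Uhrf1, which brings the maintenance DNA methyltransferase to replicated DNA, read 325 with PLZF +/+, 254 with PLZF +/lu and 254 with PLZF lu/lu. Trim28, the corepressor that protects imprints together with zinc finger proteins, was at 2196, 1999 and 1723, and Mbd3, a subunit of the NuRD complex, at 1280, 1079 and 1077. Nipbl, which loads cohesin, was the brightest of the list, at 3256, 3513 and 3885. Rad21, a cohesin subunit, was at 2675, 2523 and 2685. Ctcf was at 1837 and the demethylase gene Tet1 at 2339 on each array. Of the PLAG family, Plagl2 was at 1663, 1502 and 1442, while Plag1 and Plagl1 lay below the olfactory receptor level. Over the list PLZF +/+ was the brighter for 10 genes, the dimmer for 10 and equal for 15, with a median log2 difference of 0.00. The shares over all genes were 24.9% brighter, 16.9% dimmer and 58.1% equal.

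Igf2 and H19 are known for high levels in fetal mesenchyme and muscle, so markers of other cells were measured beside them. The summed intensity of all 10 fibroblast markers was 1321 with PLZF +/+, 1305 with PLZF +/lu and 1205 with PLZF lu/lu. Of the 10 markers 5 exceeded the olfactory receptor level on some array. The other 5, Dcn, Lum, Postn, Pdgfra and Fn1, lay below that level on all arrays. The brightest, Pdgfrb, was at 324, 265 and 202, in the order of Igf2, and its part in the result was not tested. The collagen genes lay above the level on all arrays, Col1a1 with 241 on each, Col1a2 with 202, 210 and 202, and Col3a1 with 155, 178 and 178. Fbln1 was at 120, 127 and 104, below the level with PLZF lu/lu. The 7 skeletal muscle markers summed to 1034, 1097 and 1043, with Tnnt3 the brightest. No marker of these lists, nor of 8 thymic epithelial, 6 endothelial, 5 erythroid, 10 myeloid and dendritic and 5 B cell genes, differed by more than 2-fold in any comparison. Of all genes 0.430% did so between PLZF +/+ and PLZF lu/lu. The share was 0.133% between PLZF +/+ and PLZF +/lu, and 0.123% between PLZF +/lu and PLZF lu/lu. With shares this small, nothing is read from the lack of a called marker. Summed intensities in PLZF +/+, PLZF +/lu and PLZF lu/lu were 1254, 1200 and 1181 for thymic epithelium, with Ccl25 the brightest, and 3000.3, 3000.3 and 3014 for endothelium, with Pecam1. They were 597, 623 and 597 for erythroid cells, with Epor, 1133, 1121 and 1109 for myeloid and dendritic cells, with Cd68, and 1984, 1767 and 1732 for B cells, with Cd79b. These sums include markers above the olfactory receptor level on no array. They were 3 of 7 for muscle, 4 of 8 for thymic epithelium and 4 of 6 for endothelium. For erythroid cells they were 2 of 5, for myeloid and dendritic cells 7 of 10 and for B cells 2 of 5. Pecam1 alone read 2643 on each array, and Cd79b 1658, 1440 and 1406. A sum is therefore no measure of the amount of a cell type.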

How the data were processed

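Double-sorted thymocytes of 3 genotypes were hybridised to Affymetrix Mouse Gene ST arrays, 1 per genotype. Linear intensities, 1 per probe set, were deposited by the authors after GenePattern (modules ExpressionFileCreator, MultiplotPreprocess and Multiplot) and removal of the normalization controls. The build mm8 is named in the submitters' processing notes. How background was corrected, probes summarised and arrays scaled is not given in the sources. All 3 value columns were matched to a sample.

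Genes were assigned to probe sets from the platform annotation (21065 with 1 gene, 1187 with several, 2548 with none listed). For 20983 of those with 1 gene, the symbol was taken from RefSeq (GRCm38.p6) by gene identifier, whether or not it changed. No probe set was named from the place of its own identifier, and no coordinates of the arrays are given, since builds differ. A gene with several probe sets was represented by its brightest (mean log2 over the arrays). Differences were taken on the log2 scale, values within 1e-06 were equal, and a fold above 2 was called. No test was possible.

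The members and gene lists were chosen with earlier results of these data known. In each list the genes named were those past 2-fold and above the olfactory receptor level, then the largest differences up to 5, and the 3 brightest. Of the marker lists the brightest was named, and of the genes around Igf2 the nearest 4 on each side. Cdkn1c, Insr, Igf1, Igf2bp1, Lin28b, Ctcf, the PLAG family, Mcts1, Cd81 among the neighbours, Cd3e, Cd4 and the other fibroblast genes, Supt6 and Zbtb16 were named besides, after their values were seen. Alternatives were other scalings, a floor, 32 added to each intensity, other folds, PLZF +/+ averaged with PLZF +/lu, the mean over probe sets and leaving out dim probe sets. Python 3.11.15, numpy 2.4.6, pandas 2.3.3, matplotlib 3.10.9, R 4.3.3 and limma 3.58.1 were used. The counting was tested on simulated data.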

Additional observations from a re-analysis of the deposited data

How the results depend on the processing

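Under the alternatives the log2 difference between PLZF +/+ and PLZF lu/lu ranged from 2.03 to 2.52 for Igf2, from 2.67 to 3.14 for the unannotated probe set and from 2.62 to 3.39 for the Mir675/Supt6 probe set. The lowest values came from averaging PLZF +/+ with PLZF +/lu, which has to shrink a difference where PLZF +/lu lies between. The number of members past the threshold was 3 under all 10 alternatives, the 1.5-fold and 3-fold thresholds included, and that of the genes around Igf2 was 0. The choice of members used these values, and the members lay far from the thresholds on either side. The unchanged count of members is therefore no support. At 1.5-fold, 2 imprinted genes (Igf2 and Airn) and 2 genes of the IGF pathway (Igf2 and Igf1r) were counted in place of 1 each. Among the regulators the count of 1, which was Igf2bp3, became 0 with centring on the median (log2 difference 0.998), quantile normalization (0.97), 32 added to each intensity (0.86), PLZF +/+ averaged with PLZF +/lu (0.39) and the 3-fold threshold. The alternatives for Igf2bp3 and Igf1r by themselves were added after the values were seen, and Igf1r stayed between 0.57 and 0.78. The medians of the lists moved by less than 0.01. Many genes of each list had equal values, which holds a median in place, so nothing is read from this. No paired analysis was possible because there is 1 array per genotype. The number of arrays limits the precision, and below an intensity of 108 no difference could be told from background.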
